A study of Homo sapiens with 24 samples.

Results

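The genes described here are 10 genes tied to PAX3-FOXO1, the fusion protein that drives most alveolar rhabdomyosarcomas, out of 29639 genes in the tables. They are the fusion partners PAX3 and FOXO1 and 8 genes known as targets of the fusion protein: FGFR4, ALK, ABAT, PIPOX, ASS1, NOS1, CNR1 and MYCN. They were taken by gene name, and all 10 had a row in each of the 4 tables. Rhabdomyosarcoma is a soft tissue tumour of the skeletal muscle lineage. Messenger RNA was sequenced from Rh30 cells, labelled alveolar rhabdomyosarcoma, and RD cells, labelled embryonal rhabdomyosarcoma. Cultures of each line received DMSO as the vehicle, 0.5 µM SGI-110, dasatinib, or SGI-110 and dasatinib together (the combination) over 5 days, with 3 replicate libraries in each of 8 groups, 24 in all. The wording of the labels does not settle whether 0.5 µM was also the dose of dasatinib. SGI-110 (guadecitabine) is a dinucleotide that releases decitabine, a cytidine analogue that traps DNA methyltransferases and so lowers DNA methylation in dividing cells. Dasatinib inhibits tyrosine kinases of the SRC and ABL families and several receptor kinases.

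The values are the authors' own comparisons, and no value per library was used here, so the spread over replicates enters only through the deposited standard errors. Which cell line the comparisons refer to is not named. The largest deposited standard error, 6.01 log2, equals the limit of 6.01 for 3 libraries a group in a fit of 24 libraries, whereas 6 libraries a group would give 4.25. The fold changes are therefore read as the response of 1 line that is left unnamed. This matters for the meaning of the list, since Rh30 is known to carry the fusion and RD is not. The mean normalised count, in contrast, is taken as the mean over all 24 libraries of both lines.

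In the tumour, a chromosome translocation joins the DNA-binding paired domain and homeodomain of PAX3 to the activation domain of FOXO1. The fusion protein escapes the signals that keep normal FOXO1 out of the nucleus, and it works mainly at distal enhancers together with the muscle factors MYOD1 and MYOG and with MYCN. The targets include surface receptors, metabolic enzymes and transcription factors, and several serve as markers of fusion-positive tumours. The tables hold 1 value per gene. Transcripts of the fusion gene and of the intact PAX3 and FOXO1 genes share exons, so the PAX3 and FOXO1 rows cannot tell them apart.

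Levels differed widely among the members. Divided by the length of the annotated exons (GENCODE 29, GRCh38), the mean normalised count of ASS1 was highest, at 1452 per kilobase, and that of FGFR4 was next, at 1247 per kilobase. ABAT followed at 501, MYCN at 413, PIPOX at 354, FOXO1 at 214 and NOS1 at 165 counts per kilobase. ALK stood at 73.6, PAX3 at 56.9 and CNR1 at 15.1 counts per kilobase, the lowest of the 10. These levels average treated and untreated cells of both lines, and no spread over libraries can be given for them. The standard error of a single treatment group, solved from the deposited standard errors, was at most 0.19 log2 for any member, and that largest value was reached by CNR1 in dasatinib. A group is treated as having no measurable level where this standard error is at least 1.17 log2, the value for 3 libraries at 0.5 counts each, and no member came near it.

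SGI-110 alone lowered a block of receptor and enzyme genes and raised CNR1. Relative to DMSO, 6 of the 10 members were lower and 2 higher past the threshold of 0.05 on the adjusted p in the authors' deposited table. Over all genes tested in that comparison, 17.1% fell and 30.4% rose. The median log2 fold change of the 10 members was -0.19, against 0.04 over the 21364 genes measured in both groups. Levels are given below as a percentage of the DMSO level with the 95% interval computed from the standard error.

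Among the receptor genes, FGFR4 encodes a fibroblast growth factor receptor kinase that is often activated in this tumour (chromosome 5, 177086886 to 177098144 in GRCh38). With SGI-110 it stood at 40.4% of DMSO (36.6% to 44.6%; log2 fold change -1.31 ± 0.07, SE, adjusted p = 4.4e-71 in the authors' deposited table). ALK, a receptor kinase of the developing nervous system (chromosome 2, 29192774 to 29921566), stood at 25.2% (22.1% to 28.6%; adjusted p = 5.4e-96 in the authors' deposited table). CNR1, the cannabinoid receptor CB1 (chromosome 6, 88139864 to 88166359), went the other way and rose 13.0-fold, with an interval of 9.95 to 17.0 (3.70 ± 0.20 log2, adjusted p = 7.5e-77 in the authors' deposited table). It is the member with the lowest level, and its standard error for SGI-110 against DMSO was the largest of the 10.

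The enzyme genes split into a pair that fell strongly and a pair that hardly moved. ABAT, the transaminase that breaks down the transmitter GABA (chromosome 16, 8674565 to 8784575), stood at 24.7% of DMSO with SGI-110 (22.2% to 27.5%; adjusted p = 3.6e-141 in the authors' deposited table). PIPOX, a peroxisomal oxidase of sarcosine and pipecolate (chromosome 17, 28950513 to 29057220), stood at 36.2% (32.5% to 40.4%; adjusted p = 2e-74 in the authors' deposited table). NOS1, the neuronal nitric oxide synthase (chromosome 12, 117208142 to 117452170), fell only to 91.9% (86.0% to 98.2%; adjusted p = 0.029 in the authors' deposited table). This call on NOS1 was lost when the median of genes averaging 100 or more counts (well measured genes) was set to 0 (adjusted p = 0.088). ASS1, which makes argininosuccinate on the way to arginine (chromosome 9, 130444929 to 130501274), stood at 107% with an interval of 97.7% to 117% and did not pass (adjusted p = 0.24 in the authors' deposited table).

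Transcription factor genes among the members stayed within a log2 fold change of 1 in either direction. PAX3, a regulator of muscle progenitors and neural crest (chromosome 2, 222199888 to 222298996), rose to 169% of DMSO (152% to 188%; adjusted p = 1e-20 in the authors' deposited table). MYCN, a MYC family factor (chromosome 2, 15940564 to 15947007), fell to 83.8% (77.1% to 91.1%; adjusted p = 0.00011 in the authors' deposited table). FOXO1, a forkhead factor controlled by insulin signalling (chromosome 13, 40469953 to 40666597), stood at 94.1% with an interval of 85.2% to 104% and did not pass (adjusted p = 0.35 in the authors' deposited table). In the order of responses, the intervals of ABAT and ALK overlapped, as did those of PIPOX and FGFR4. The intervals of CNR1 and PAX3, the members that rose, overlapped neither each other nor that of ASS1, the next in order.

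**Figure D1:**
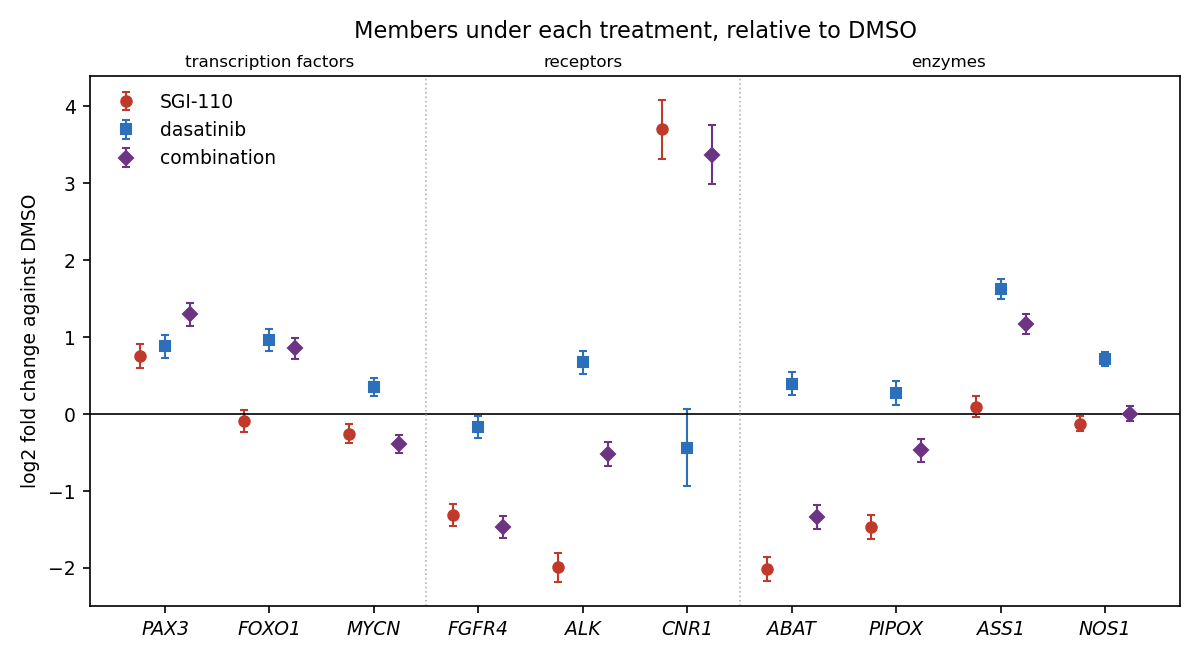
Log2 fold change against DMSO (vertical axis) of the 10 members under SGI-110 (circles), dasatinib (squares) and the combination (diamonds); bars are 95% intervals from the deposited standard errors, and the 3 comparisons share the DMSO libraries. With SGI-110, FGFR4, ALK, ABAT and PIPOX lie between -1.31 and -2.02 and CNR1 at 3.70, while with dasatinib alone ASS1 is highest at 1.63.

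Since SGI-110 acts on the methylation of CpG sites, the promoters of the 3 receptor genes and of PIPOX are shown: CNR1 rose, the other 3 fell, and PIPOX has the fewest CpG sites of the 10 members. Each sequence is the 250 bases before the first start that RefSeq lists (GRCh38.p14), read 5′ to 3′ on the strand of the gene, with every CpG in capitals. The windows lie at chr6:88167350-88167599 on the minus strand, chr5:177086665-177086914 on the plus strand, chr2:29921587-29921836 on the minus strand and chr17:29042891-29043140 on the plus strand.
CNR1: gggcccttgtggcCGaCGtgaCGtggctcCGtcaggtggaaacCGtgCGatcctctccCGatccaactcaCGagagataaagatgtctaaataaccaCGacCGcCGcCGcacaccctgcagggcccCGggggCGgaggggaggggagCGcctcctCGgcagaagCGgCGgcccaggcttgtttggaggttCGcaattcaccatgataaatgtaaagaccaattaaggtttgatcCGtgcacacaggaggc
FGFR4: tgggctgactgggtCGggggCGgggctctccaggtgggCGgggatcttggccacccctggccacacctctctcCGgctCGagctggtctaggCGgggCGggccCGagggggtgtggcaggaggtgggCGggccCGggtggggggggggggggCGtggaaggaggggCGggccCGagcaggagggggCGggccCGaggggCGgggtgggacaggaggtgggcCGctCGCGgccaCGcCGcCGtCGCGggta
ALK: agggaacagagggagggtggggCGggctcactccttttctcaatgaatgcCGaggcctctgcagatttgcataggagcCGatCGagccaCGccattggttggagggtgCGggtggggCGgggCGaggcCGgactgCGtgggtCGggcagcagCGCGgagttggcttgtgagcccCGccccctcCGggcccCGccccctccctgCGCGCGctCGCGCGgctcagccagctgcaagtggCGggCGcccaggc
PIPOX: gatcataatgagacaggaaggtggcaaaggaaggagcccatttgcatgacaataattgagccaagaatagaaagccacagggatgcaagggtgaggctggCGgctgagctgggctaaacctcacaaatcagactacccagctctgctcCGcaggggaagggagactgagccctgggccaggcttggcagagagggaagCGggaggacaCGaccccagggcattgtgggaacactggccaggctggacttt

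All 10 members matched a RefSeq promoter. The window held 20 CpG sites in CNR1 and 24 each in FGFR4, ALK and ABAT, but 4 in PIPOX. FOXO1 had 27, ASS1 21, PAX3 17, MYCN 11 and NOS1 6, and the median over the first starts of 27305 genes was 11. Genes with CpG-rich windows were thus found among those that rose, those that fell and those that did not pass, and PIPOX fell with a CpG-poor window. CNR1 has 6 listed starts, of which the first is shown, and methylation itself was not measured in these files. The RefSeq starts of PIPOX and NOS1 lie far inside the genes as GENCODE draws them, and those of FGFR4 and ABAT just inside. The CNR1 window begins at 88167350, well outside the GENCODE gene, which ends at 88166359. Short motifs were also counted on both strands of the same windows. ATTA, the core bound by homeodomains, was found in 5 of the 10 members and in 48.2% of all 27305 windows, and the E-box CANNTG of muscle factors in 6 of 10 and in 62.2%. GTCAC, a core of paired domain sites, was in 2 of 10 members and 37.7% of windows. These counts describe letters in a short window.

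**Figure D2:**
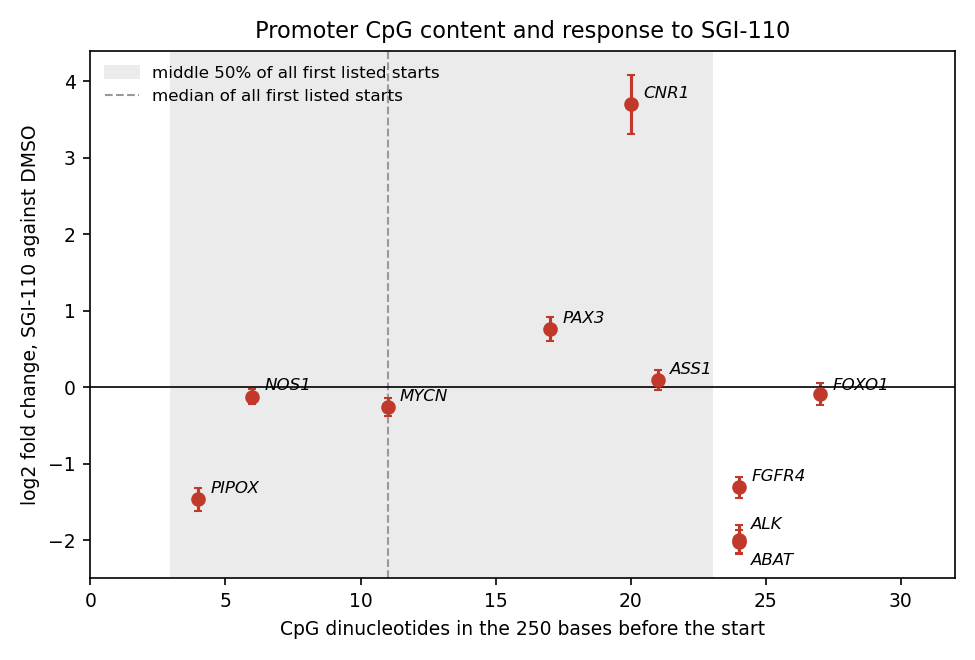
CpG dinucleotides in the 250 bases before the first RefSeq start (horizontal axis) against the log2 fold change of SGI-110 against DMSO (vertical axis, with 95% intervals) for the 10 members; the grey band is the middle 50% of all first listed starts, 3 to 23 CpG sites, and the dashed line their median of 11. CNR1, with 20 sites, lies far above the members with 24 sites, FGFR4, ALK and ABAT.

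Dasatinib alone raised most of the 10 members. Relative to DMSO, 8 of the 10 members were higher and 0 lower past the same threshold in the authors' deposited table, where over all genes tested 17.8% rose and 13.2% fell. By the unadjusted p of the authors' DESeq2 Wald test, 1 member was lower, FGFR4. The median log2 fold change of the members was 0.53, against -0.0032 over the 20742 genes measured in both groups.

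The largest response to dasatinib among the members was that of ASS1, which rose to 309% of DMSO (283% to 339%; 1.63 ± 0.07 log2, adjusted p = 1.7e-129 in the authors' deposited table). It was the only member past a log2 fold change of 1 in this comparison, and its interval overlapped with that of no other member. NOS1, which uses the arginine that this pathway makes, rose to 165% (154% to 176%; adjusted p = 1.1e-47 in the authors' deposited table). ABAT rose to 132% (118% to 146%) and PIPOX to 121% (109% to 134%), for which the authors' deposited table lists adjusted p-values of 3.6e-06 and 0.0019. All 4 enzyme genes were therefore higher with dasatinib.

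Both fusion partners rose with dasatinib, FOXO1 to 195% of DMSO (177% to 215%) and PAX3 to 184% (165% to 205%), with overlapping intervals. The authors' deposited table lists adjusted p-values of 6.6e-40 for FOXO1 and 3.4e-27 for PAX3. MYCN rose to 128% (118% to 139%; adjusted p = 5e-08 in the authors' deposited table). Of the receptor genes only ALK rose, to 159% (144% to 176%; adjusted p = 1.4e-17 in the authors' deposited table). FGFR4 stood at 89.2% with an interval of 80.9% to 98.4% and did not pass (adjusted p = 0.067 in the authors' deposited table). It passed when the median of well measured genes was set to 0 (adjusted p = 0.012) and among genes averaging 50 or more normalised counts (adjusted p = 0.049). CNR1 stood at 74.0% (52.4% to 105%; adjusted p = 0.2 in the authors' deposited table) and was the least precise value of the 10.

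The combination left the members in a mixed state. Relative to DMSO, 4 members rose and 5 fell in the authors' deposited table, where 29.8% of all genes tested rose and 17.6% fell. CNR1 stood at 10.4-fold (7.92 to 13.6), PAX3 at 245% (221% to 273%), ASS1 at 225% (205% to 246%) and FOXO1 at 181% (164% to 199%), and these 4 rose. FGFR4 was lowest at 36.2% (32.8% to 39.9%), with ABAT at 39.6% (35.6% to 44.0%). ALK at 69.8% (62.5% to 77.8%), PIPOX at 72.2% (65.0% to 80.2%) and MYCN at 76.3% (70.2% to 83.0%) also fell. NOS1 stood at 100.4%, with an interval of 94.0% to 107% (adjusted p = 0.95 in the authors' deposited table). PIPOX had the largest adjusted p of the 9 called members, 8.8e-09 by the authors' deposited table.

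A further comparison asks what dasatinib added to SGI-110. Against SGI-110 alone, 7 members were higher in the combination and 1 was lower in the authors' deposited table, where 14.2% of all genes tested were higher and 17.0% lower. The median log2 fold change was 0.61 for the members and -0.03 for the 24626 genes measured in both groups. ALK rose most, 2.77-fold (2.43 to 3.16), followed by ASS1 at 210.0% (192% to 229.7%), PIPOX at 1.99-fold (1.79 to 2.22) and FOXO1 at 1.92-fold (1.74 to 2.11). ABAT rose 1.60-fold (1.44 to 1.78) and PAX3 1.45-fold (1.32 to 1.60). NOS1 rose 1.09-fold (1.02 to 1.17), and the authors' deposited table lists an adjusted p of 0.031, which became 0.071 with the median of well measured genes at 0. CNR1 was the member that fell, to 79.7% of its level with SGI-110 alone (66.6% to 95.4%; adjusted p = 0.044 in the authors' deposited table, 0.057 when adjusted over every gene with a p). FGFR4 at 89.5% (81.0% to 98.8%) and MYCN at 91.1% (83.7% to 99.0%) did not pass, since the authors' deposited table lists adjusted p-values of 0.08 and 0.083. With the median of well measured genes at 0 both passed, at adjusted p of 0.047 and 0.044.

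The response to dasatinib was then compared without and with SGI-110, as the difference of the last comparison and dasatinib against DMSO. The response differed for 6 of the 10 members, with 2 members higher and 4 lower when SGI-110 was present (Wald test computed from the authors' deposited table, Benjamini-Hochberg over 29639 genes). Over all genes the shares were 6.09% and 8.49%. Only 20386 of these genes were measured in all 4 groups. Their comparison with the members is limited further by level: the median mean normalised count over all genes was 24.5, while every member had at least 95.7. For ALK the response was larger by 0.80 log2 (0.56 to 1.04; adjusted p = 3.5e-09) and for PIPOX by 0.72 (0.50 to 0.94; adjusted p = 4.7e-09). Both stood well above the level that the sum of the single-drug log2 changes gives: ALK at 69.8% against 40.1% of DMSO, and PIPOX at 72.2% against 43.8%. For the other 4 the response was smaller with SGI-110. The differences were -0.59 log2 for NOS1 (-0.73 to -0.46; adjusted p = 1.5e-15), -0.56 for ASS1 (-0.74 to -0.38; adjusted p = 1.2e-07), -0.49 for MYCN (-0.66 to -0.32; adjusted p = 5.1e-07) and -0.34 for PAX3 (-0.55 to -0.14; adjusted p = 0.011). The call on PAX3 was lost at a threshold of 0.01 and under the Benjamini-Yekutieli adjustment (adjusted p = 0.115), which left 5 members. NOS1 thus stood at 100.4% of DMSO in the combination, where the sum of the single-drug changes gives 151%.

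For FGFR4 the interaction was 0.0039 log2 with an interval of -0.20 to 0.20, and for FOXO1 it was -0.02 (-0.22 to 0.17), so differences past these bounds in the response to dasatinib lie outside the 95% intervals. FGFR4 stood at 36.2% of DMSO in the combination, where the sum of the single-drug changes gives 36.1%. CNR1, at 0.11 (-0.45 to 0.67), has an interval too wide to show a moderate difference. ABAT, at 0.28 (0.07 to 0.50), did not pass (adjusted p = 0.069), but it passed with the median of well measured genes at 0 (adjusted p = 0.028) and at a mean count of at least 50 (adjusted p = 0.033). The test assumes that the dasatinib table comes from the same fit as the other 3. Its mean normalised counts are the same as theirs for all 29639 genes, which does not settle this.

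**Figure D3:**
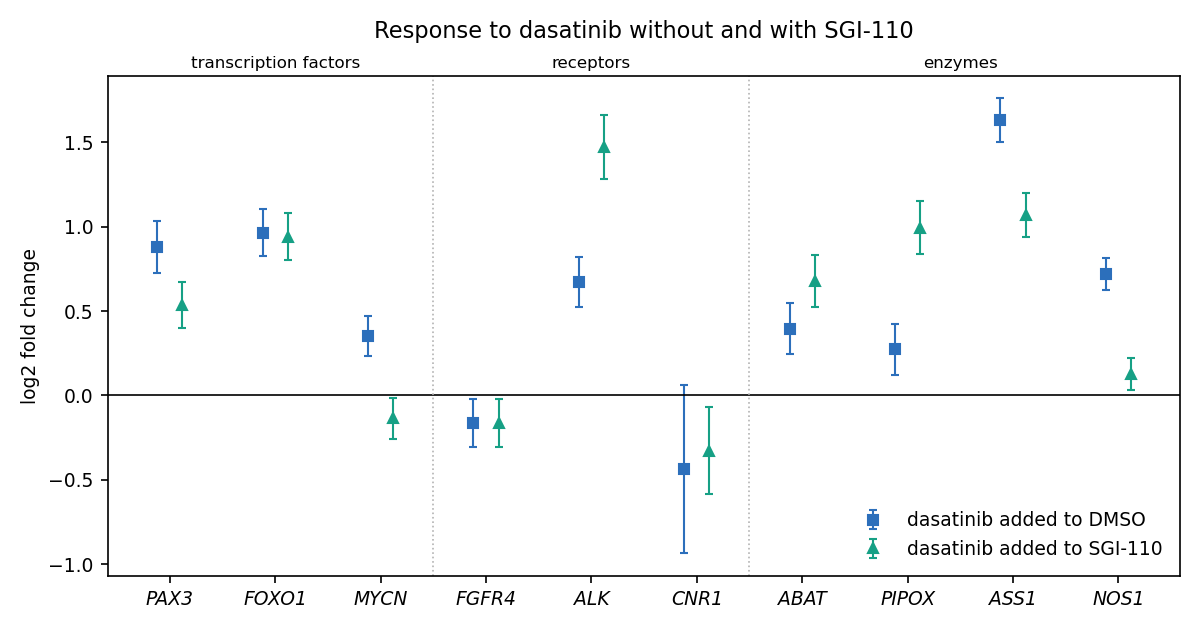
Log2 fold change on adding dasatinib to DMSO (squares) or to SGI-110 (triangles) for the 10 members, with 95% intervals. ALK goes from 0.67 to 1.47 and PIPOX from 0.27 to 0.99, whereas NOS1 goes from 0.72 to 0.13 and MYCN from 0.35 to -0.14; FGFR4 stays at -0.16 in both.

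The same data read from the side of SGI-110 give its effect in the presence of dasatinib. Between the combination and dasatinib alone, 7 members were lower and 2 higher (Wald test computed from the authors' deposited table, Benjamini-Hochberg over 29639 genes), where 16.5% of all genes were lower and 26.6% higher. Of all these genes, 21214 were measured in both groups. ABAT stood at 30.1% of its level with dasatinib alone (27.0% to 33.4%), FGFR4 at 40.5% (36.7% to 44.7%) and ALK at 43.8% (39.4% to 48.6%). PIPOX at 59.7% (53.7% to 66.3%), MYCN at 59.7% (55.0% to 64.8%), NOS1 at 61.0% (57.1% to 65.1%) and ASS1 at 72.7% (66.5% to 79.4%) were lower as well. CNR1 rose 14.0-fold (10.5 to 18.6) and PAX3 1.33-fold (1.21 to 1.47). FOXO1, at 92.6% (84.4% to 102%), did not pass (adjusted p = 0.2). The response of FGFR4 to SGI-110 had nearly the same size in both settings, 40.4% of DMSO and 40.5% of dasatinib.

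**Figure D4:**
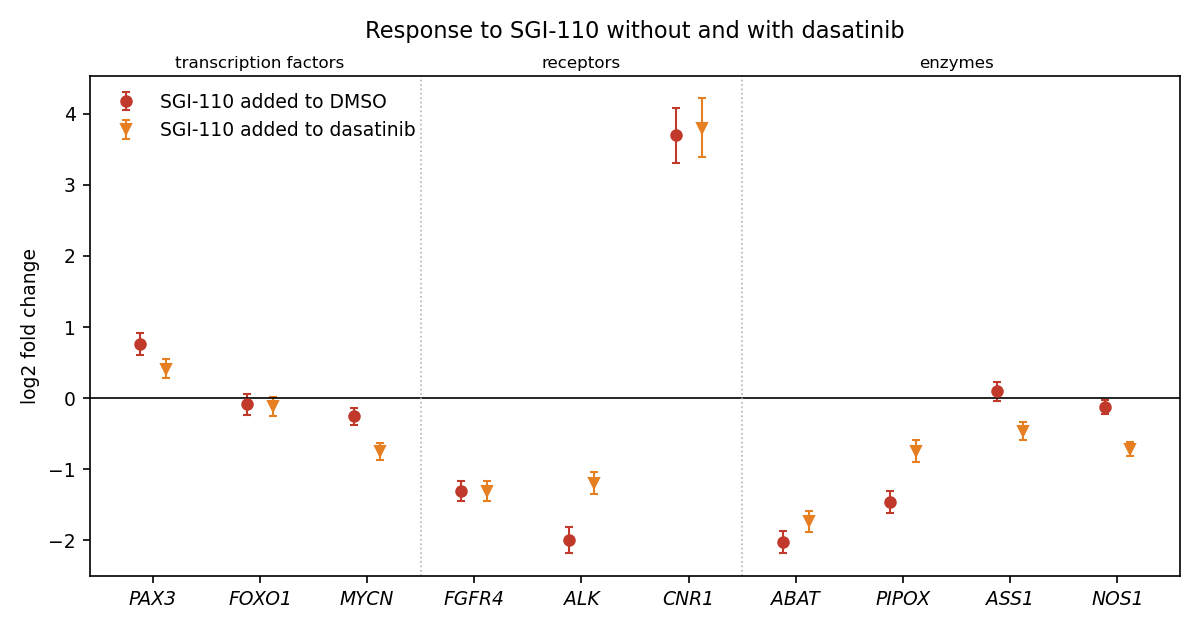
Log2 fold change on adding SGI-110 to DMSO (circles) or to dasatinib (downward triangles) for the 10 members, with 95% intervals; the second is computed from the deposited standard errors. CNR1 is near 3.70 and 3.81, FGFR4 near -1.31 and -1.30, and ALK goes from -1.99 to -1.19.

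Genes with the most similar responses were sought among 11253 other genes that average 100 or more normalised counts and have standard errors of at most 0.3. Likeness was the Euclidean distance over the 3 log2 fold changes against DMSO, which stand for 4 treatments. The nearest gene to FGFR4 was RP11-342K6.1 at a distance of 0.08 log2, followed by SDK1 at 0.12, and MGST1 at 0.14. MYCN had close neighbours in MZT1 (0.04), PFKL (0.04) and BNIP3L (0.05), and NOS1 in SEMA6A (0.06), RP3-331H24.7 (0.11) and TRIB2 (0.11). PAX3 was nearest to CCNB1 (0.12), ARHGAP17 (0.16) and CREM (0.21), and PIPOX to TTC3P1 (0.03) and AMH (0.22). The neighbours of FOXO1 were SYTL3 (0.21), PRDM12 (0.23) and LIMCH1 (0.28). ALK, ABAT and ASS1 had no neighbour within 0.3: their nearest were SLC18A1 (0.40), GARS (0.39) and TRIL (0.42). The next were PHGDH (0.57) and TTC3P1 (0.68) for ALK, EIF4EBP1 (0.42) and COQ5 (0.43) for ABAT, and TMX4 (0.46) and FAM81A (0.47) for ASS1. CNR1 was below the count minimum.

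Some members overlap other genes. CCDC140 lies on the opposite strand of PAX3 and stood at 1.25 ± 0.39 log2 with SGI-110 in the authors' deposited table (adjusted p = 0.0036), at a mean normalised count of 19.1 against 452 for PAX3. SEZ6 and PHF12 lie opposite PIPOX as annotated. SEZ6 rose with SGI-110 (3.78 ± 0.36 log2, adjusted p = 5.2e-24 in the authors' deposited table) while PIPOX fell, and PHF12 stood at 0.04 ± 0.06. MYCNOS, opposite MYCN, stood at 0.87 ± 0.52 and did not pass (adjusted p = 0.17 in the authors' deposited table). All libraries are stranded, but the strand setting of the counting is not given in the sources used here, so reads of such pairs may be shared.

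The wider set of reported fusion targets did not move as 1 block. For this list and those below, the shares over all genes tested were 30.4% higher and 17.1% lower with SGI-110. They were 17.8% and 13.2% with dasatinib, and 14.2% and 17.0% for the combination against SGI-110. Of 20 further targets, 19 had a row, and with SGI-110 12 rose and 6 fell, with a median of 0.23 log2 over the 18 measured in both groups (from the authors' deposited table). GREM1, a secreted BMP antagonist, rose by 5.26 ± 0.15 log2, and the BMP ligand gene BMP5 by 1.85 ± 0.12, in the authors' deposited table. RASSF4, an adaptor of RAS-associated signalling, stood at -0.81 ± 0.05 and the SOX factor gene SOX8 at -0.76 ± 0.08 in the authors' deposited table, and both fell. With dasatinib 9 rose and 3 fell, among them BMP5 (2.07 ± 0.12), the chromatin factor gene JARID2 (0.76 ± 0.06) and GREM1 (1.68 ± 0.16), which rose, in the authors' deposited table. Against SGI-110 alone the combination had 8 higher and 3 lower, with DCX, a microtubule protein of migrating neurons, at 2.56 ± 0.16 and NELL1 at 2.83 ± 0.22 in the authors' deposited table. BCL2L1, which encodes the survival protein BCL-XL, was lower (-0.97 ± 0.07 in the authors' deposited table).

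Cofactors and kinases that act on the fusion protein changed in both directions. With SGI-110, 3 of 12 rose and 5 fell, with a median of -0.05 log2, from the authors' deposited table, where 30.4% of all genes tested rose and 17.1% fell. The remodeller gene CHD4 (0.68 ± 0.05) and the mitotic kinase gene PLK1 (0.86 ± 0.06) rose, and CDK4 (-0.69 ± 0.06) fell in the authors' deposited table. With dasatinib 6 rose and 1 fell, with PLK1 at 0.95 ± 0.06 and HDAC2 at 0.33 ± 0.05 in the authors' deposited table. Dasatinib on top of SGI-110 left 6 higher and 2 lower, with CDK4 at 0.42 ± 0.06 in the authors' deposited table.

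The network of PAX, EYA and DACH genes and their partners, which acts with PAX3 in muscle progenitors, had 12 of 13 genes in the tables. SGI-110 raised 4 and lowered 4, dasatinib raised 3 and lowered 2, and dasatinib on top of SGI-110 raised 2 and lowered 2, from the authors' deposited table. EYA4 stood at -0.56 ± 0.07 with SGI-110 in the authors' deposited table. PAX7, the paralogue of PAX3, had no measurable level in DMSO in the line compared. Its mean normalised count of 527 is over all libraries of both lines, so it does not give the level in that line. PAX7 passed as higher with SGI-110 (adjusted p = 0.00013 in the authors' deposited table). It was lower in the combination than with SGI-110 alone (-2.36 ± 0.79 log2, adjusted p = 0.011), and the combination did not pass against DMSO (adjusted p = 0.1), both by the authors' deposited table. Of 18 FOXO paralogues and FOXO target genes, 10 rose and 0 fell with SGI-110, and none was lower by the unadjusted DESeq2 p either, from the authors' deposited table. The shares over all genes tested with SGI-110 were 30.4% higher and 17.1% lower. TXNIP, which restrains glucose uptake, rose by 3.81 ± 0.09 log2 with SGI-110 and 3.47 ± 0.10 with dasatinib in the authors' deposited table. Dasatinib alone raised 7 and lowered 4 of these genes, and on top of SGI-110 it raised 1 and lowered 6, including BCL6 (-1.32 ± 0.10), CITED2 (-1.13 ± 0.09) and FBXO32 (-2.10 ± 0.18) in the authors' deposited table.

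The listed receptor relatives found were those of FGFR4 and ALK, and most rose with SGI-110, whereas FGFR4 and ALK fell. Of 12 paralogues and ligands, 9 rose and 1 fell with SGI-110, with a median of 0.81 log2 over the 9 measured in both groups, from the authors' deposited table. Of all genes tested, 30.4% rose and 17.1% fell. FGFR1, with the highest mean normalised count of the list (5796), rose by only 0.19 ± 0.05 log2 with SGI-110. MDK, a growth factor reported to bind ALK, rose by 1.21 ± 0.09 and FGFR3 by 1.61 ± 0.14 in the authors' deposited table. FGFR2 was 1 of 3 genes of the list without a measurable level in DMSO, and it passed as higher (adjusted p = 5.6e-07 in the authors' deposited table). Its mean normalised count was 22.1. LTK, the paralogue of ALK, fell with dasatinib (-0.88 ± 0.09) and FGFR1 rose slightly (0.17 ± 0.05) in the authors' deposited table. With dasatinib 3 rose and 1 fell, and on top of SGI-110 2 were higher and 6 lower by the authors' deposited table.

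Genes that neighbour the member enzymes in metabolism and signalling had 19 of 20 rows. SGI-110 raised 9 and lowered 3, among them DAGLB, which makes an endocannabinoid (2.23-fold higher), the arginine transporter gene SLC7A1 (-0.79 ± 0.08 log2), NOS1AP (2.37 ± 0.24 log2) and the sarcosine enzyme gene SARDH (-0.74 ± 0.10 log2) in the authors' deposited table. Dasatinib raised 5 and lowered 2, DDAH1 at 0.64 ± 0.09 and AASS at -0.57 ± 0.09 in the authors' deposited table. On top of SGI-110 it raised 1 and lowered 7, from the authors' deposited table. In the MYC family and its partners 4 of 12 rose and 4 fell with SGI-110, and 3 rose and 4 fell with dasatinib. For both lists, the shares over all genes tested were 30.4% higher and 17.1% lower with SGI-110, and 17.8% and 13.2% with dasatinib. AURKA, a mitotic kinase that stabilises MYCN protein, had the largest Wald statistic of the list in both comparisons and rose, by 0.95 ± 0.06 log2 with SGI-110 and 0.89 ± 0.06 with dasatinib in the authors' deposited table. MYC itself fell with SGI-110 (-0.60 ± 0.06) and with dasatinib (-0.74 ± 0.06) in the authors' deposited table, where MYCN stood at -0.25 ± 0.06 and 0.35 ± 0.06. On top of SGI-110, dasatinib lowered MYC by -0.65 ± 0.07 and MYCL by -0.60 ± 0.09 in the authors' deposited table, with 1 gene of the list higher and 3 lower.

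**Figure D5:**
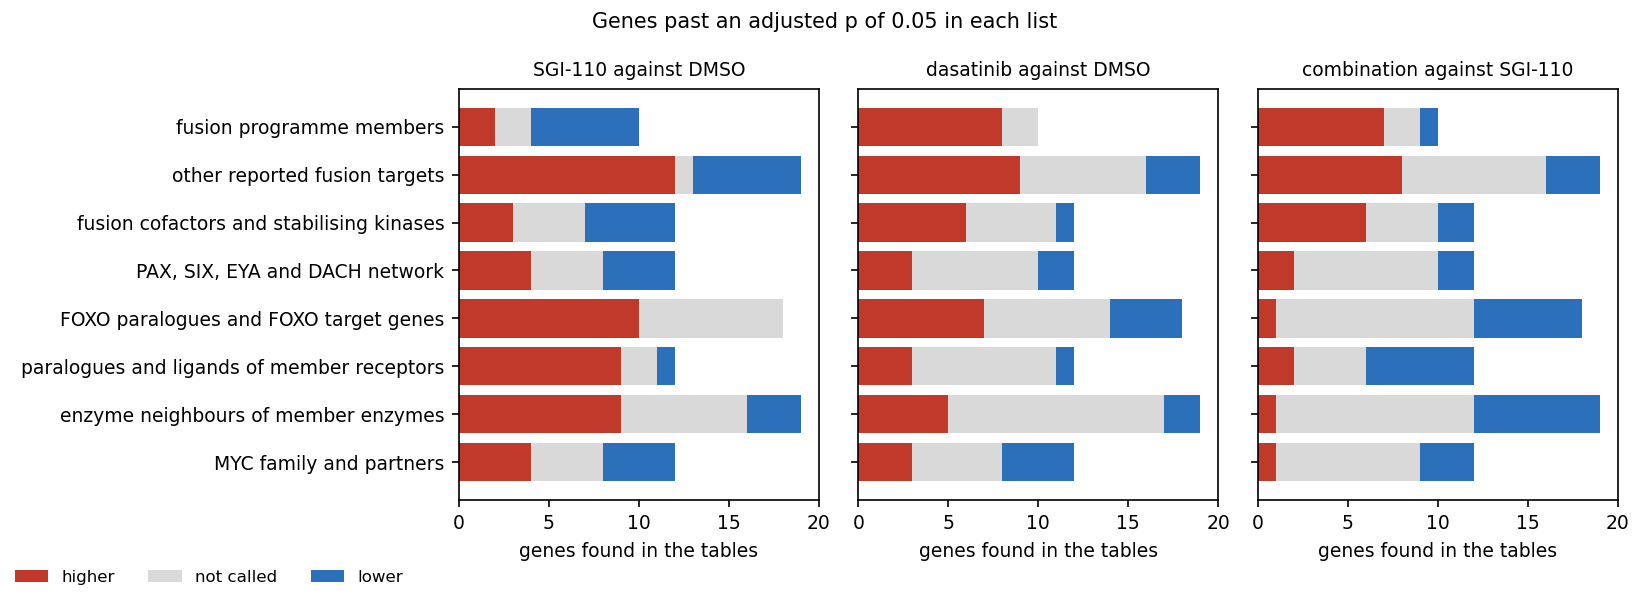
Number of genes (horizontal axis) of each list that were higher, not called or lower at an adjusted p of 0.05 under SGI-110 or dasatinib alone relative to DMSO, and under the combination relative to SGI-110. The 10 programme members show 6 lower with SGI-110 and 8 higher with dasatinib, while the further fusion targets show 12 higher with SGI-110. Of all genes tested, 30.4% were higher and 17.1% lower with SGI-110, and 17.8% were higher with dasatinib.

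The labelled lineage was visible in the marker genes. All 7 skeletal muscle markers found had a measurable level in every treatment, with mean normalised counts from 268 to 11865. With SGI-110 3 rose and 2 fell, and with dasatinib 0 rose and 4 fell, by the authors' deposited table, and none was higher by the unadjusted DESeq2 p. Genes marking other lineages rose with SGI-110 beside the members: 5 of 6 fibroblast, 5 of 5 epithelial, 5 of 5 endothelial and 4 of 4 blood genes, from the authors' deposited table. Of all genes tested, 30.4% rose and 17.1% fell with SGI-110, and 17.8% rose and 13.2% fell with dasatinib. Several of these markers had very low counts. The mean normalised count was at most 10.9 for blood markers, with a median of 21.2 for epithelial and 31.1 for endothelial markers. In DMSO, 1 fibroblast, 5 epithelial, 2 endothelial and 3 blood markers had no measurable level. The remaining fibroblast marker fell. With dasatinib 1 fibroblast marker rose and 2 fell, PDGFRB at -0.94 ± 0.15 and COL1A1 at -0.29 ± 0.08 log2 in the authors' deposited table, while COL1A2 was the one that rose (adjusted p = 0.044). A single endothelial marker rose with dasatinib, and no epithelial or blood marker passed. The summed mean count was 8217 for fibroblast, 279 for epithelial, 741 for endothelial and 22.4 for blood markers, against 37420 for muscle markers. Sums per treatment cannot be given, and the part of these genes in the members' values was not tested. In bulk RNA, fewer cells with a transcript and less transcript per cell cannot be told apart.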

How the data were processed

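Messenger RNA of 24 cultures was read from stranded libraries (75-base pairs, per the labels' protocols). Per the submitters' processing notes, the tools named are DESeq2 1.16.1 and DESeq, featureCounts 1.5.1, HISAT2 2.1.0 and Trim Galore 0.4.2, with the build GRCh38. Neither the model formula nor any filter is stated. The 4 tables hold, per the file headers, DESeq2 output: a mean normalised count per gene (signal, deposited by the authors), a standard error on the log2 scale (deposited), the Wald statistic (a deposited score), and the deposited p-value with its Benjamini-Hochberg adjusted p-value. No value per library was used, so the depth of each library is unknown.

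Log2 fold changes were computed as the Wald statistic times its standard error, and 95% intervals from that standard error. For the combination and SGI-110, the difference of the fold changes against DMSO equalled the deposited direct comparison to within 0.00152 log2. The variance of each treatment group was solved from the standard errors. The combination against dasatinib and the interaction were tested with two-sided Wald tests over all 29639 genes (Python 3.11.15, scipy 1.17.1). Their arithmetic was checked on simulated data with noise drawn from the same solved variances. That simulation cannot test whether the dasatinib comparison comes from the same fit as the others. The planned test, the deposited Wald test at an adjusted p under 0.05, was kept. The triplicates are labelled biological, so the p-values rest on the spread between replicate cultures. In a fit of 24 libraries, as read above, this spread is estimated over the groups of both lines together. It is then not the spread of the 1 line alone.

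All members are named. From other lists, named genes have the largest absolute Wald statistic: up to 4 for SGI-110 and up to 3 for dasatinib and for the combination against SGI-110. Some genes that this rule names are not reported here. The fusion status markers are all named, which goes beyond this rule, and overlapping genes were taken from the annotation. The members and lists were chosen with earlier results of these data known. Gene positions and exon lengths come from GENCODE 29 (GRCh38), promoters from RefSeq. Alternatives were an adjusted p under 0.01, a log2 fold change of at least 1, centring on the median of genes with a mean count of at least 100 ("well measured"), a mean count of at least 50, adjustment over every gene with a p, and Benjamini-Yekutieli.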

Additional observations from a re-analysis of the deposited data

Results flagged for a closer look

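The response to dasatinib differed with and without SGI-110 for 6 of the 10 members, by a test of the difference itself at an adjusted p under 0.05. With SGI-110 present, 2 responses were higher and 4 lower, where over all genes 6.09% were higher and 8.49% lower. The call on PAX3 was lost at a threshold of 0.01 and under the Benjamini-Yekutieli adjustment. The difference, as the response with SGI-110 minus that without it, was 0.80 log2 for ALK, 0.72 for PIPOX, -0.34 for PAX3, -0.56 for ASS1, -0.59 for NOS1 and -0.49 for MYCN. The test takes the dasatinib table as part of the same fit as the other 3.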

How the results depend on the processing

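No paired analysis was possible because the tables hold comparisons and no value per library; for the same reason no replicate could be left out. Of 340 member values under the alternatives, 292 kept their side of the threshold, 42 lost the call and 6 gained it. Among values called in either setting, 0 reversed direction. A change of sign in a value called in neither setting was not counted as a reversal. A minimum log2 fold change of 1 moved the counts most. It left the genes tested at 28489 for SGI-110, 20445 for dasatinib and 27915 for the combination against DMSO. Against SGI-110 they were 22743, and against dasatinib and for the interaction 29639. Genes higher and lower became 5681 and 780 for SGI-110, 423 and 598 for dasatinib, 5049 and 1084 for the combination against DMSO, 337 and 1115 against SGI-110, 5179 and 690 against dasatinib, and 306 and 506 for the interaction. Under that minimum, members higher were 1 for SGI-110, 1 for dasatinib, 2 against SGI-110, 1 against dasatinib and 0 for the interaction, and members lower were 2 for the combination against DMSO, 0 against SGI-110, 3 against dasatinib and 0 for the interaction. At a mean count of at least 50, genes higher were 4606 for SGI-110, 4802 for the combination against DMSO and 4151 against dasatinib, with fewer genes tested, and 1 member was lower with dasatinib (FGFR4). With the median set to 0, members lower were 1 for dasatinib (FGFR4) and 3 for the combination against SGI-110 (CNR1, FGFR4, MYCN). At the main setting, 13.2% of all genes tested were lower for dasatinib and 17.0% for the combination against SGI-110. For that last comparison 0 members were lower at an adjusted p under 0.01, over every gene with a p and under Benjamini-Yekutieli. Benjamini-Yekutieli left 1753 genes lower for dasatinib, 2071 higher and 2552 lower against SGI-110, and 1026 higher and 1622 lower for the interaction. The median shift was at most 0.0504 log2 in size. Depth per library is unknown, and the standard error of CNR1 limits it most.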

Other observations

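Genes used in pathology to tell fusion-positive from fusion-negative tumours were looked at beside the members; 7 of the 8 listed had a row. Of these, 3 rose and 3 fell with SGI-110 and 2 rose and 2 fell with dasatinib, from the authors' deposited table. The shares over all genes tested were 30.4% and 17.1% with SGI-110, and 17.8% and 13.2% with dasatinib. NOS1, MYOG and OLIG2, markers of fusion-positive tumours, stood at -0.12 ± 0.05, 0.46 ± 0.07 and -0.43 ± 0.12 log2 with SGI-110 in the authors' deposited table. HMGA2, EGFR and FBN2, markers of fusion-negative tumours, stood at -0.28 ± 0.09, -0.07 ± 0.06 and 0.31 ± 0.06 in the same comparison of the authors' deposited table. CDH3, a cadherin gene induced by the fusion protein, had a mean normalised count of 4.26 and stood at 3.58 log2 with SGI-110 (adjusted p = 0.0054 in the authors' deposited table).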
